A study of Homo sapiens with 39 samples.

Results

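The genes described here act on the lipid droplet, the organelle in which cells store neutral fat. They are the CIDE genes CIDEA, CIDEB and CIDEC, the perilipins PLIN2, PLIN3, PLIN4 and PLIN5, the lipolysis inhibitor HILPDA, and the acyltransferases DGAT1 and DGAT2, 10 of the 45435 rows of the series. They were taken by name from every table. As a set they were chosen by their function together with earlier results of the same TPM values, in which CIDEC, CIDEB and PLIN2 differed between lines. All values of these 10 genes are therefore given as descriptions, without p-values.

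Transcript levels were measured by RNA-seq in 39 libraries of HCT116, a human colorectal cancer cell line. They came in 13 sets of 3. One set is the parental Flp-In T-REx cells, which hold the docking site for a construct but none of HNF4A. The remaining 12 sets are 12 stable lines, each with 1 isoform of HNF4A, a nuclear receptor of liver and gut, joined at its C-terminus to GFP and switched on by doxycycline. All groups, the parental cells included, received 2.5 µg/ml doxycycline for 48 h in DMEM with serum. Before induction the parental cells were kept in blasticidin S (5 µg/ml) and zeocin (100 µg/ml), and the lines in blasticidin S (5 µg/ml) and hygromycin B (100 µg/ml). No group expressed GFP alone, and each isoform is represented by 1 line, so effects of the isoform, of GFP, of the earlier antibiotic and of deriving that line cannot be told apart. The labels do not say that the 3 libraries of a group came from separate cultures, so p-values given below measure only the spread between these libraries, which may be technical.

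Fat made in the endoplasmic reticulum leaves it as droplets covered by coat proteins. Perilipins cover the droplet and limit the access of lipases, CIDE proteins gather where droplets touch and pass lipid from one to the other so that droplets grow, and DGAT enzymes make the triglyceride that fills them. HILPDA binds and inhibits the lipase ATGL. In the intestine and the liver, droplets hold fat on its way to secretion in lipoproteins, and CIDEB is known there for its part in lipoprotein loading. In the usual nomenclature of HNF4A, isoforms 1 to 6 start from the P1 promoter and isoforms 7 to 12 from the P2 promoter, isoforms 4 to 6 and 10 to 12 have altered N-termini, isoforms 2, 5, 8 and 11 carry a short insertion, and isoforms 3, 6, 9 and 12 have a short C-terminus. These features are background and were not given by the labels.

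The summed HNF4A level, the endogenous gene and the construct together, was 31.9, 30.8 and 31.7 TPM in the parental libraries and 407 TPM or more in every library of the lines. TPM is a level per transcript length, scaled to the same total in each library. Fold changes are on the log2(TPM + 1) scale with their standard error (SE), against the parental cells. A gene is called when its adjusted p is under 0.05 and its absolute log2 fold change is at least 1. The HNF4A row was called higher in all 12 lines, by 4.24 to 5.04. Its lowest line library was isoform 3 replicate 1, at 407 TPM while its partners had 833 and 772 TPM. Of 8 markers of colon epithelium, 6 had a mean of at least 1 TPM over all libraries, among them EPCAM, KRT8, KRT18 and CDX2. The same mean decides which markers of the other lists reached 1 TPM. The summed level of these markers was 3059.9 to 3186.9 TPM in the parental libraries and 2489.9 to 5590.4 TPM in the lines. Of 7 adipocyte markers, LIPE and CFD reached 1 TPM and ADIPOQ, LEP, FABP4 and LPL had parental means of 0.115, 0.0626, 0.0867 and 0.00689 TPM; the summed list was 52.2 to 56.0 TPM in the parental libraries and 37.7 to 60.1 TPM in the lines. None of 7 hepatocyte markers and none of 5 leukocyte markers reached 1 TPM, and of 6 fibroblast markers only COL1A1 did. The hepatocyte list summed to 0.974 to 1.35 TPM in parental and 0.809 to 1.62 TPM in line libraries, the leukocyte list to 1.23 to 1.53 and 0.589 to 1.41 TPM, and the fibroblast list to 13.5 to 15.5 and 8.78 to 16.9 TPM. No marker of any list was at 0 in all libraries.

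Of the 10 genes, 8 had a mean of at least 1 TPM over all libraries and entered the fit of 15003 genes. CIDEA and PLIN4 did not, and CIDEC did only through the levels in the lines. CIDEC was called higher in 10 of 12 lines, CIDEB in 4, and PLIN2 was called lower in 1. The share of all tested genes that was called was 4.52%, 3.73% and 0.807% for isoforms 1 to 3, 0.54%, 0.293% and 0.247% for isoforms 4 to 6, 2.08%, 1.41% and 0.827% for isoforms 7 to 9, and 1.44%, 1.7% and 0.573% for isoforms 10 to 12. Nothing is read from the genes' own counts against these shares, because the genes were proposed from these comparisons. The median log2 fold change of the 8 fitted genes lay between -0.01 in isoform 8 and 0.2 in isoform 10, beside -0.107 to 0.012 for all tested genes.

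**Figure D1:**
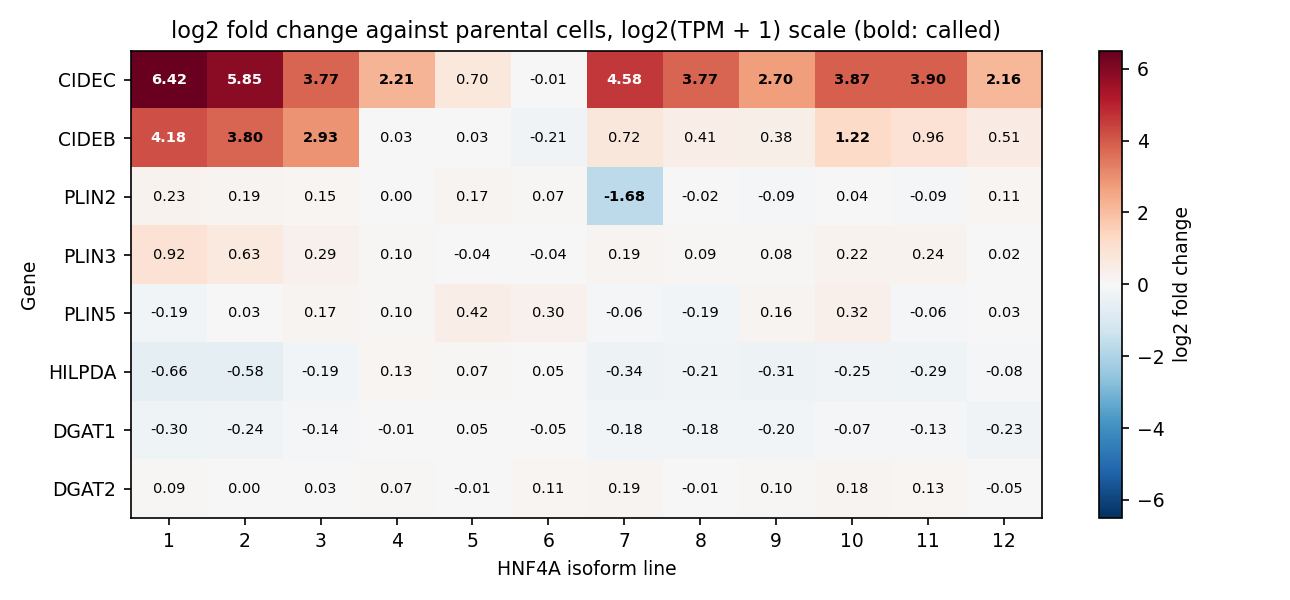
Heat map of the log2 fold change against the parental cells, on the log2(TPM + 1) scale, for the 8 fitted genes (rows) in the 12 isoform lines (columns). Colour runs from blue (lower) to red (higher), and bold values are those called; the strong colours lie in the CIDEC and CIDEB rows and in the single PLIN2 cell of isoform 7 (-1.68).

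The sequences in front of the 2 responsive CIDE genes are shown first, because an HNF4A-type motif lies in one of them. RefSeq promoter windows of 300 bases (250 before to 50 after a start site, GRCh38) were at hand for 7 of the 10 genes, in 9 windows. The motif CAAAGTCCA, known as selective for HNF4A, was searched on both strands. It occurred without mismatch in 0.384% of all 35116 windows and, among the 10 genes, only in the window of the second CIDEB start, 55 bases before that start and in reverse complement. With 1 mismatch allowed it occurred in 6.97% of all windows, and among these genes in the same CIDEB window (2 matches) and at the second CIDEC start, 70 bases before it. Both sequences are given on the strand of the gene, 5′ to 3′, with the match in capitals; the CIDEB stretch is short because annotated untranslated exon overlaps it.
CIDEB, chr14:24308014-24308043, minus strand: atccctcccctTGGACTTTGcccttcttac
CIDEC, chr3:9878813-9878941, minus strand: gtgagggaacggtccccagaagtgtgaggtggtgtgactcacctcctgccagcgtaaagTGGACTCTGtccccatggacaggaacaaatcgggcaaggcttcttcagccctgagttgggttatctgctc
The direct repeat AGGTCANAGGTCA was in none of the 9 windows and in 0.0228% of all windows. A match describes letters in a window and is not a measured binding site.

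CIDEC (ENSG00000187288, GRCh38 chromosome 3, 9866711 to 9880254, minus strand) encodes the protein, also named FSP27, that drives the growth of droplets in fat cells. It was nearly silent in the parental libraries, with 0.0344, 0.125 and 0.0643 TPM. In the isoform 1 line it stood at 99.6, 86.0 and 87.7 TPM (91.1 ± 7.42, SD, n = 3), and in the isoform 2 line at 62.3, 62.0 and 58.2 TPM (60.9 ± 2.28). No library of either line came near a parental one, and the lines themselves did not overlap. In bulk RNA, a higher level in each cell cannot be told apart from more cells with transcript. The isoform 3 libraries had 9.7, 17.8 and 14.5 TPM (14.0 ± 4.09), and the lowest of them was the library with the low HNF4A level.

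Among the P2 isoforms, CIDEC was 23.0, 27.4 and 23.7 TPM with isoform 7, 14.1, 12.3 and 14.5 TPM with isoform 8, and 5.53, 6.89 and 5.62 TPM with isoform 9. It was 15.3, 14.0 and 14.9 TPM with isoform 10, 14.4, 16.1 and 14.7 TPM with isoform 11, and 4.27, 3.45 and 3.69 TPM with isoform 12. The lowest of these 18 libraries had 27.6 times the TPM of the highest parental one. With isoforms 4 to 6 the levels were 4.31, 4.38 and 3.26 TPM with isoform 4, overlapping those of isoform 12, 0.854, 0.919 and 0.483 TPM with isoform 5, and 0.099, 0.0339 and 0.0747 TPM with isoform 6. Isoform 6 overlapped the parental libraries, and isoform 5 lay above them at under 1 TPM.

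Ordered by mean, the CIDEC levels ran from isoform 1 through 2 and 7 to the overlapping isoforms 11, 10, 3 and 8, then isoform 9, then the overlapping isoforms 4 and 12, then isoform 5, and last the parental cells and isoform 6. The log2 fold changes (SE 0.13) were 6.42, 5.85 and 3.77 for isoforms 1 to 3, 2.21, 0.7 and -0.01 for isoforms 4 to 6, 4.58, 3.77 and 2.7 for isoforms 7 to 9, and 3.87, 3.9 and 2.16 for isoforms 10 to 12. Because the parental level was far below 1 TPM, these values understate the ratio of levels. The call for isoform 5 was absent at a pseudocount of 1 and made at a pseudocount of 0.5, where the log2 fold change was 1.11. In the authors' deposited tables the CIDEC log2 fold change was 8.26 for isoform 1, 5.51 for isoform 7, 1.76 for isoform 4 and 0.36 for isoform 5. The last 2 values lie well under the ratios of mean TPM. These means were 3.99 TPM with isoform 4 and 0.752 TPM with isoform 5, beside 0.0745 TPM in parental cells. The value of 0.36 is therefore not read as a separate measure of the change in isoform 5. The reason for the gap was not tested. The mean normalised count of a table ran from 2.21 (isoform 6) to 1650 (isoform 1).

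**Figure D2:**
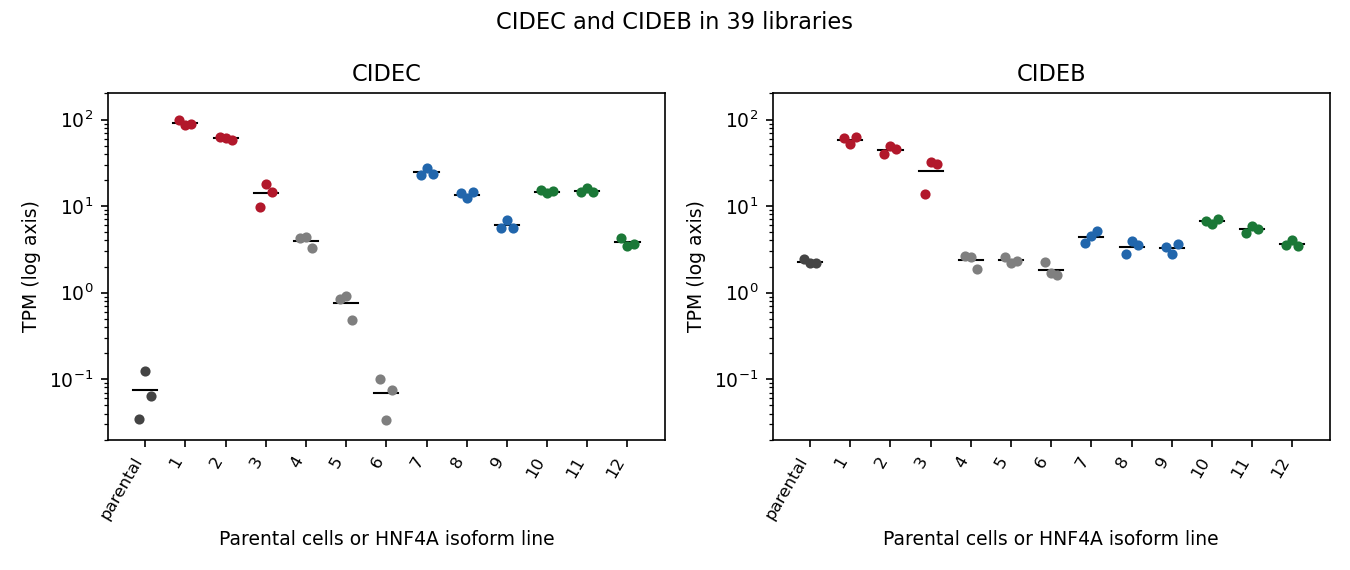
TPM (log axis) of CIDEC and CIDEB in each of the 39 libraries, as points, by group, with the group mean as a bar; dark points are parental cells, red isoforms 1 to 3, grey isoforms 4 to 6, blue isoforms 7 to 9 and green isoforms 10 to 12. CIDEC ranges from a mean of 0.0692 TPM (isoform 6) to 91.1 TPM (isoform 1), and CIDEB is above 13 TPM only in libraries of isoforms 1 to 3.

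CIDEB (ENSG00000136305, chromosome 14, 24305096 to 24311430, minus strand) is the CIDE gene of hepatocytes and enterocytes. It had a base level of 2.42, 2.2 and 2.22 TPM in the parental libraries. The isoform 1 libraries had 60.4, 52.0 and 63.2 TPM (58.5 ± 5.84), the isoform 2 libraries 40.0, 49.1 and 45.1 TPM (44.7 ± 4.56), and the isoform 3 libraries 13.7, 32.3 and 30.6 TPM (25.5 ± 10.3). These 9 libraries were the highest of all 39, and the lowest of them was again isoform 3 replicate 1. The log2 fold changes (SE 0.18) were 4.18, 3.8 and 2.93. Without isoform 3 replicate 1 the values of that line became 3.31 for CIDEB and 3.99 for CIDEC.

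The remaining lines had much lower CIDEB. Isoform 10 had 6.74, 6.19 and 7.07 TPM and was called, at a log2 fold change of 1.22. Isoform 11 had 4.93, 5.85 and 5.45 TPM and isoform 7 had 3.7, 4.45 and 5.18 TPM, both above every parental library and both short of the call (0.96 and 0.72). Isoform 11 was called with pseudocounts of 0.5 and 0.1 (1.08 and 1.21), with median-of-ratios scaling (1.03), and without isoform 11 replicate 1. Isoforms 8, 9 and 12 had means of 3.39, 3.27 and 3.69 TPM and also stood above the parental libraries. Isoforms 4, 5 and 6, at means of 2.37, 2.36 and 1.84 TPM, overlapped them. The authors' deposited table gave 4.76, 4.35 and 3.65 for isoforms 1 to 3 and 1.49 for isoform 10.

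The ratio of CIDEC to CIDEB means differed by line. Both levels are per transcript length. CIDEC was 0.0327 of CIDEB in the parental cells, 1.56 and 1.36 times CIDEB with isoforms 1 and 2, and 0.548 with isoform 3. The ratio was highest in isoforms 7 and 8, at 5.55 and 4.02, followed by 2.78 with isoform 11 and 2.21 with isoform 10. It was 1.84 with isoform 9, 1.03 with isoform 12, 0.319 with isoform 5 and 0.0375 with isoform 6. In the isoform 4 line, where CIDEB was at its parental level, the ratio was 1.69. Across the 12 line means on the log2 scale, CIDEC and CIDEB had a Pearson r of 0.817, given as a description; the means share the same libraries and the same scaling.

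**Figure D3:**
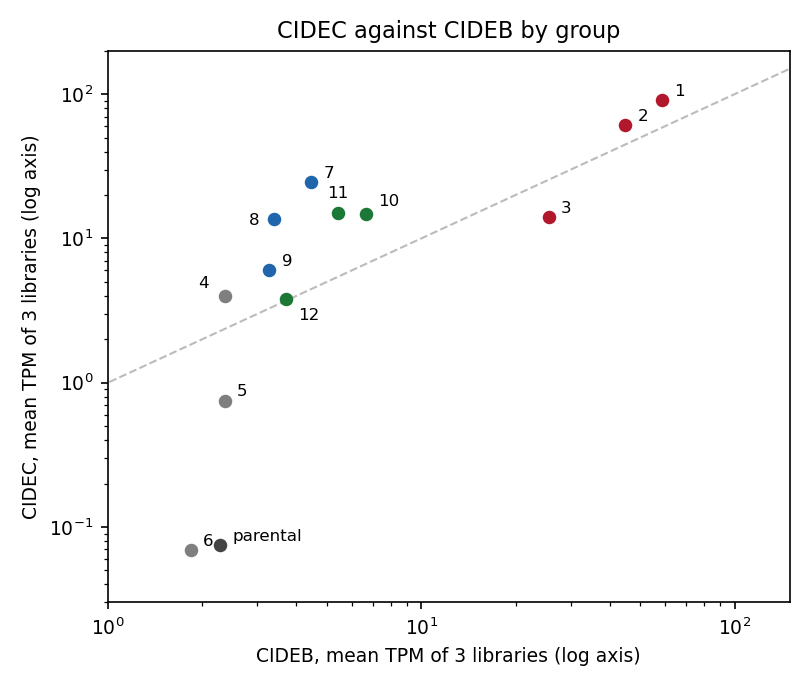
Group mean TPM of CIDEC (vertical, log axis) against CIDEB (horizontal, log axis), 1 point per group of 3 libraries, coloured as in the plot of CIDE levels, with a dashed line where both are equal. Isoforms 7, 8, 10 and 11 lie above the line at CIDEB means of 3.39 to 6.67 TPM, and isoforms 1 and 2 lie just above it at 44.7 TPM or more. Isoforms 9, 4 and 12 also lie above it, with CIDEC to CIDEB ratios of 1.84, 1.69 and 1.03.

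Differences between lines were also set side by side by isoform feature, as log2 values of the first line minus the second; each isoform is represented by 1 line. For the short C-terminus, CIDEC differed by -2.65 (isoform 3 minus 1), -2.21 (6 minus 4), -1.87 (9 minus 7) and -1.71 (12 minus 10). CIDEB differed by -1.25, -0.24, -0.34 and -0.71 in the same pairs. All 8 differences were negative. The CIDEB ones for 6 minus 4 and 9 minus 7 were under 2 times their SE of 0.18. CIDEB of isoforms 4 and 6 overlapped the parental libraries, so nothing is read from the sign of that CIDEB pair. For the insertion, CIDEC differed by -0.57 (2 minus 1), -1.51 (5 minus 4), -0.81 (8 minus 7) and 0.03 (11 minus 10), and CIDEB by -0.38, 0, -0.31 and -0.26. For CIDEC each insertion pair was nearer to 0 than its C-terminus counterpart. For P2 against P1 starts, CIDEC differed by -1.84 (7 minus 1), -2.08 (8 minus 2) and -1.06 (9 minus 3), and CIDEB by -3.45, -3.38 and -2.55. For the isoforms with the altered P1 N-terminus, CIDEC differed by -4.21 (4 minus 1), -5.15 (5 minus 2) and -3.77 (6 minus 3), and CIDEB by -4.15, -3.76 and -3.14. With the altered P2 N-terminus, CIDEC differed by -0.7 (10 minus 7), 0.14 (11 minus 8) and -0.54 (12 minus 9). CIDEB differed by 0.5, 0.55 and 0.14 in the same pairs. The CIDEC value for 11 minus 8 and the CIDEB value for 12 minus 9 were under 2 times their SE (0.13 and 0.18). The CIDEC differences that involve isoforms 5 and 6, at under 1 TPM, depend on the pseudocount in size and order. With a pseudocount of 0.1 in place of 1, an alternative added after seeing the data for these pairs, CIDEC differed by -4.6 for 6 minus 4 beside -2.73 for 3 minus 1, by -2.29 for 5 minus 4, and by -4.49, -6.2 and -6.36 for 4 minus 1, 5 minus 2 and 6 minus 3. The pairs 6 minus 4 and 6 minus 3 then had the largest CIDEC difference of their feature.

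HNF4A and the CIDE genes ran in different orders across the lines. The isoform 6 line had the highest HNF4A mean, 1071.0 TPM, and the lowest CIDEC and CIDEB of the lines. The isoform 2 and 11 lines had the same HNF4A mean, 614 TPM, and CIDEC means of 60.9 and 15.1 TPM. Over the 12 line means, r with HNF4A was -0.638 for CIDEC and -0.514 for CIDEB, and over the 9 lines without isoforms 4 to 6 it was -0.168 and -0.265. Protein levels of the isoforms were not analysed here.

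Both genes share sequence with others. CIDEB overlaps NOP9 and LTB4R2 on the opposite strand, over 4029 and 5697 bases, and the strand setting of the quantification is not given in the sources used here. Over the 39 libraries NOP9 ranged from 30.2 to 40.1 TPM and LTB4R2 from 3.55 to 8.0 TPM. LTB4R2 was 5.13 ± 1.17 TPM in isoform 1 and 5.96 ± 0.423 TPM in parental libraries, while CIDEB went from 2.28 to 58.5 TPM. CIDEC has a pseudogene copy, CIDECP, whose level was 4.66 to 8.42 TPM over all libraries, with group means of 5.43 to 7.39 TPM. Reads shared by the copies could be assigned to either.

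CIDEA (ENSG00000176194, chromosome 18, 12254319 to 12277595, plus strand), the CIDE gene of brown fat, was listed at 0 in 38 libraries and at 0.0188 TPM in 1 isoform 1 library. In the authors' deposited tables its mean normalised count was at most 0.166. No change of CIDEA was detectable at these levels.

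PLIN2 (ENSG00000147872, chromosome 9, 19108375 to 19149290, minus strand) encodes the droplet coat protein of most cell types. Its parental values were 31.7, 33.1 and 30.7 TPM. In the isoform 7 line they were 10.5, 9.85 and 7.68 TPM (9.33 ± 1.46), below each of the other 36 libraries. The log2 fold change was -1.68 (SE 0.06), and -1.58 in the authors' deposited table. The other 11 lines had means of 29.9 to 37.5 TPM and log2 fold changes of -0.09 to 0.23. Isoforms 8 and 9, which share the start of isoform 7, stood at 31.4 and 29.9 TPM. The low level was thus seen in 1 line, and whether it belongs to the isoform or to that line cannot be told apart. With isoforms 1, 2 and 3 PLIN2 was 37.5, 36.5 and 35.3 TPM, slightly above every parental library.

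The genes next to PLIN2 in that line were looked up after its values had been seen. Of 21 other tested genes within 5 Mb, 0 were called in isoform 7, where 2.08% of all tested genes were called, and their median log2 fold change was -0.11 beside -0.06 for all genes in that line. The closest ones were HAUS6 (-0.12), RRAGA (0.22), DENND4C (-0.21), RPS6 (0.04) and ACER2 (-0.22). The small RNA gene SCARNA8 had -0.66 with an SE of 0.68. Farther away, CDKN2B had 0.86 (SE 0.12), MLLT3 -0.48 (SE 0.1) and PSIP1 -0.43 (SE 0.06). No neighbour reached a log2 fold change of -1. Nothing is read from the count of 0 called neighbours against the share of 2.08%.

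**Figure D4:**
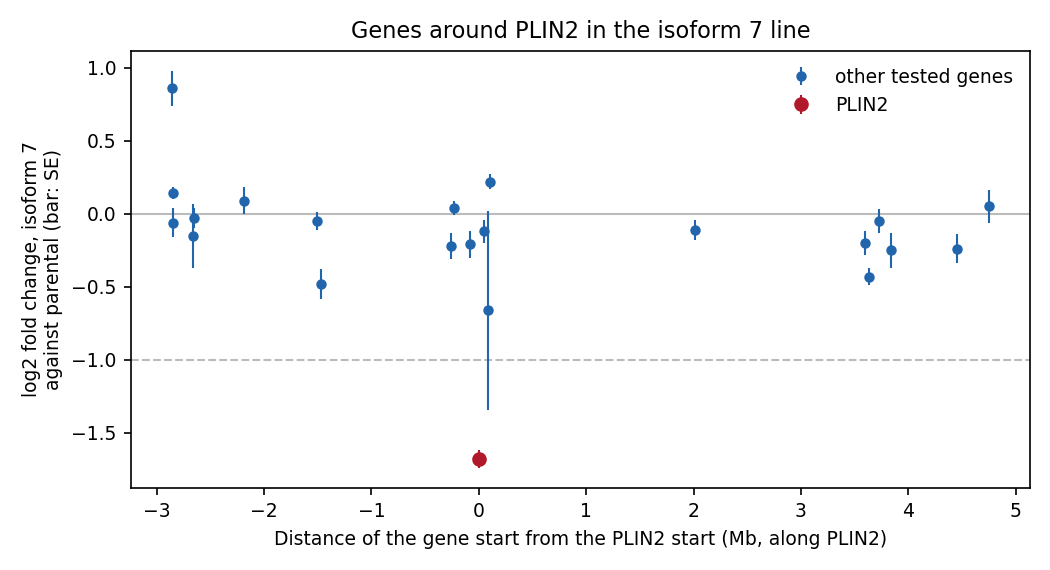
Log2 fold change of the isoform 7 line against the parental cells (vertical, bars are the SE) for PLIN2 (red) and the 21 other tested genes within 5 Mb (blue), by the distance of their start from the PLIN2 start in Mb (horizontal); the dashed line marks -1. PLIN2 at -1.68 is the lone point under the dashed line.

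PLIN3 (ENSG00000105355, chromosome 19, 4838341 to 4867768, minus strand) encodes a perilipin that moves from the cytosol onto new droplets, and it was the most abundant perilipin in every group. Its parental libraries had 114, 120 and 121 TPM. The isoform 1 libraries had 238, 204 and 233 TPM (225 ± 18.3), and the isoform 2 libraries 178, 186 and 188 TPM (184 ± 5.36). Isoform 3 followed with 139, 147 and 149 TPM. The log2 fold changes were 0.92, 0.63 and 0.29 (SE 0.05), none of them reaching 1. With median-of-ratios scaling, isoform 1 reached 1.06 and was called. In isoforms 10, 11 and 7 the values were 0.22, 0.24 and 0.19, and in isoforms 5 and 6, at 115 TPM each, PLIN3 overlapped the parental libraries.

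Together the 4 perilipins summed to 153 TPM in parental cells, with 77.4% from PLIN3 and 20.8% from PLIN2. The sum was 265 TPM with isoform 1, with 84.9% from PLIN3. With isoform 7 the sum was 147 TPM, close to the parental one, but PLIN2 was 6.35% of it and PLIN3 91.8%.

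PLIN4 (ENSG00000167676, chromosome 19, 4502180 to 4518465, minus strand), a perilipin of fat cells, was between 0.595 and 1.2 TPM in all 39 libraries. Group means ran from 0.745 TPM in parental cells to 1.09 TPM with isoform 5. PLIN5 (ENSG00000214456, chromosome 19, 4522531 to 4535224, minus strand), which links droplets to mitochondria in oxidative tissues, was between 1.29 and 3.22 TPM. Its parental libraries had 2.06, 1.94 and 2.03 TPM, the isoform 5 libraries 3.04, 3.14 and 2.9 TPM, and the isoform 1 libraries 1.81, 1.71 and 1.4 TPM. Isoform 5 thus lay above and isoform 1 below every parental library, with log2 fold changes of 0.42 and -0.19 (SE 0.13). AC011498.4 overlaps PLIN5 on the same strand over 6798 bases, so shared reads could be assigned to either. PLIN4 and PLIN5 remained minor next to PLIN3.

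HILPDA (ENSG00000135245, chromosome 7, 128455849 to 128458418, plus strand) is induced by low oxygen and protects stored fat from lipolysis. It was 27.0, 27.4 and 25.5 TPM in the parental libraries. In the isoform 1 libraries it was 15.5, 17.5 and 16.5 TPM, and in the isoform 2 libraries 17.4, 17.9 and 17.2 TPM. These were the lowest values of all 39 libraries, at log2 fold changes of -0.66 and -0.58 (SE 0.06). Every library of isoforms 3, 7, 8, 9, 10 and 11 was also below the parental ones, by -0.19 to -0.34. The isoform 4 libraries, at 29.1, 29.5 and 28.8 TPM, were above them (0.13). No HILPDA change reached the call. AC010655.4 and AC010655.2 overlap HILPDA on the same strand, over 2570 and 2482 bases, so shared reads could be assigned to any of these genes.

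A line whose 3 libraries all lie on one side of the parental ones is common in these data. This held for 65%, 64.6% and 39.5% of tested genes for isoforms 1 to 3, 35.2%, 38% and 32.6% for isoforms 4 to 6, 48.9%, 48.5% and 32.5% for isoforms 7 to 9, and 52.1%, 50.8% and 33.2% for isoforms 10 to 12. The smaller shifts of PLIN3, PLIN5, HILPDA and DGAT1 are to be set beside these shares.

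HILPDA was low where PLIN3 and the CIDE genes were high. Over the 12 line means, r of HILPDA was -0.912 with CIDEC, -0.807 with CIDEB and -0.862 with PLIN3, and r of PLIN3 was 0.867 with CIDEC and 0.936 with CIDEB. Over the 9 lines without isoforms 4 to 6, HILPDA and CIDEC had r of -0.909, and PLIN3 and CIDEC 0.918. These are descriptions over means that share libraries and scaling.

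DGAT1 (ENSG00000185000, chromosome 8, 144314584 to 144326910, minus strand) and DGAT2 (ENSG00000062282, chromosome 11, 75759512 to 75801535, plus strand) encode unrelated enzymes for the last step of triglyceride synthesis. DGAT1 was 45.6, 41.0 and 41.3 TPM in parental libraries and 36.4, 34.6 and 32.6 TPM with isoform 1, its lowest group. Its log2 fold changes ran from -0.3 (isoform 1) to 0.05 (isoform 5), with an SE of 0.05. DGAT2 was 9.21, 8.94 and 9.92 TPM in parental libraries and between 7.97 and 11.7 TPM in all libraries. Its log2 fold changes ran from -0.05 to 0.19 (SE 0.07). The DGAT1 to DGAT2 ratio was 4.56 in parental cells and 3.43 with isoform 1.

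**Figure D5:**
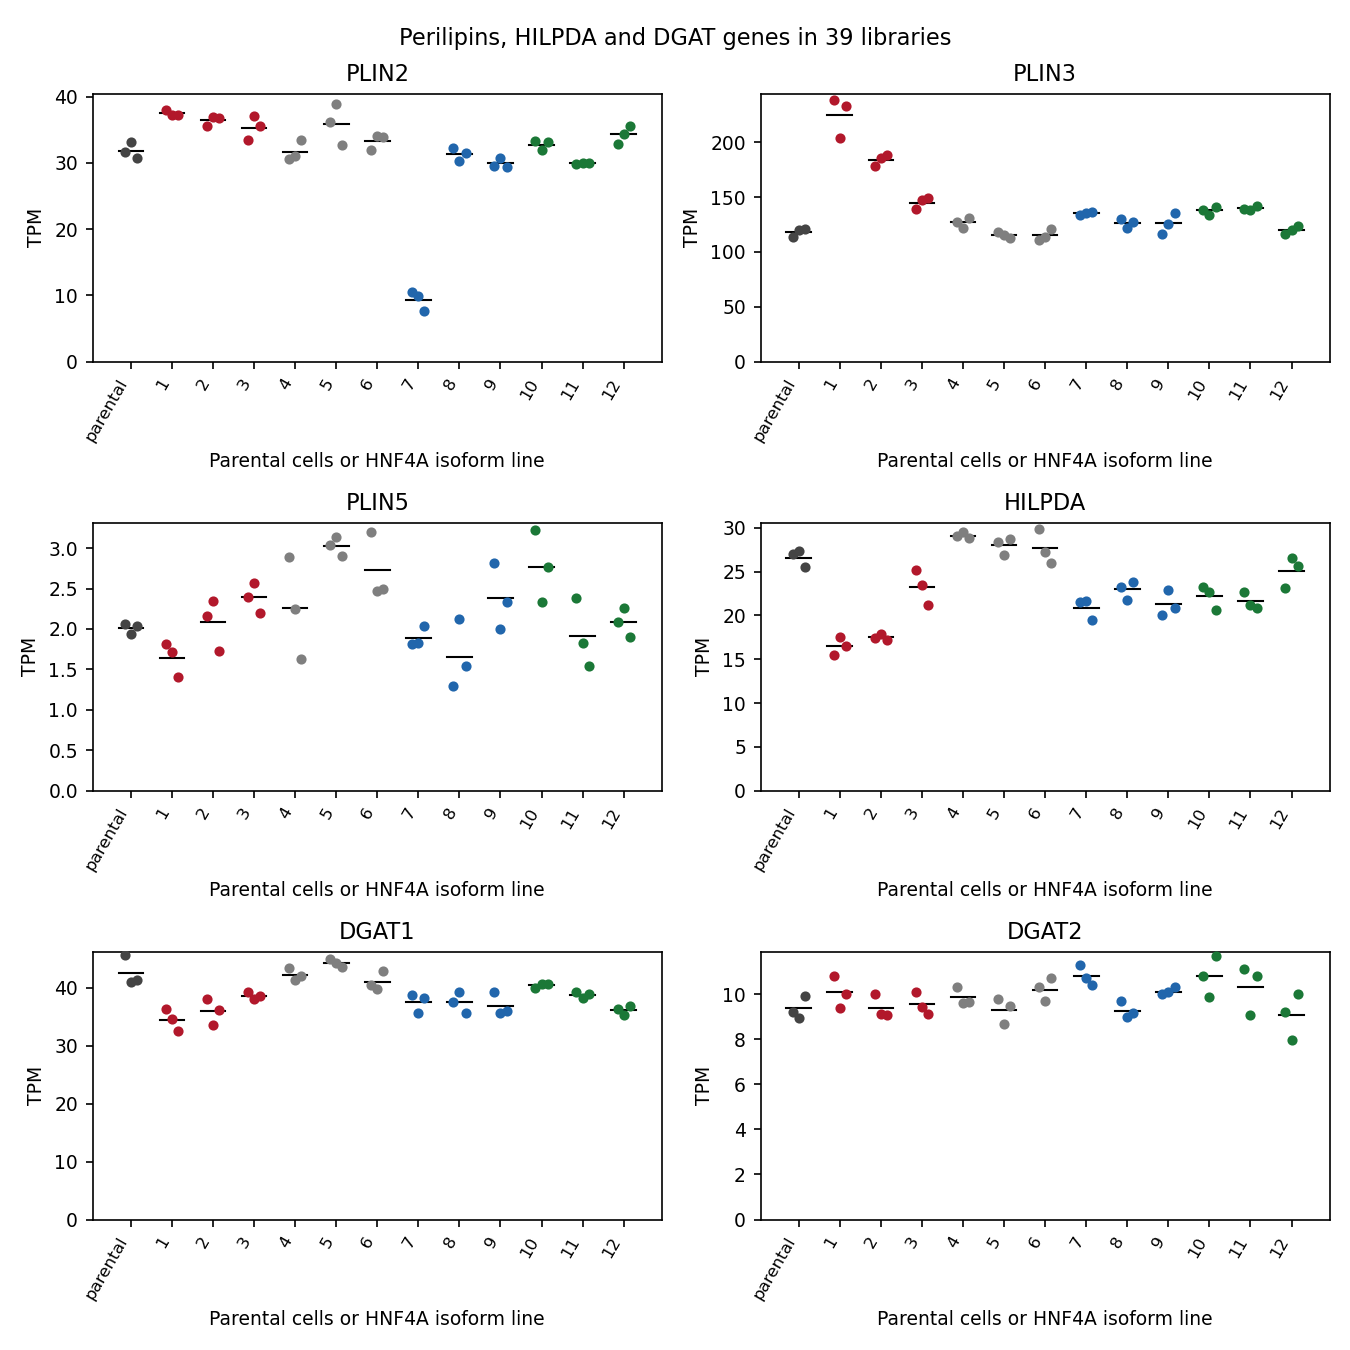
TPM (linear axis from 0) of PLIN2, PLIN3, PLIN5, HILPDA, DGAT1 and DGAT2 in each of the 39 libraries, as points by group, with the group mean as a bar and colours as in the plot of CIDE levels. PLIN2 is low in isoform 7 (9.33 TPM), PLIN3 is high in isoforms 1 and 2 (225 and 184 TPM), HILPDA is low in the same lines (16.5 and 17.5 TPM), and DGAT2 stays between 7.97 and 11.7 TPM.

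Genes of the pathways around the droplet were counted from 6 lists that the 10 genes do not belong to. Of triglyceride synthesis genes, 16 of 20 were tested, and 3 were called higher in isoform 1, 2 in isoform 2 and 1 each in isoforms 8 and 11. Of all tested genes, 4.52%, 3.73%, 1.41% and 1.7% were called in isoforms 1, 2, 8 and 11, in either direction, and nothing is read from a single called gene against these shares. AGPAT2, which makes phosphatidic acid, rose from 58.1 ± 1.26 TPM in parental cells to 218 ± 22.2 TPM with isoform 1 and 214 ± 2.14 TPM with isoform 2. Its log2 fold changes were 1.88, 1.87 and 1.08 in isoforms 1, 2 and 11 (limma, adjusted p = 2.14e-21, 3.76e-21 and 3.73e-15). AGPAT2 was also higher, short of the call, in isoforms 7, 10, 8 and 3 (0.99, 0.86, 0.8 and 0.67). GPAT3, which starts glycerolipid synthesis, rose from 10.1 TPM to 22.7 TPM in isoform 1 and 25.8 TPM in isoform 2, with log2 fold changes of 1.1 and 1.28 (limma, adjusted p = 1.27e-15 and 4.44e-17). Its value in isoform 8 was 1 and fell to 0.92 without parental replicate 3 and to 0.98 without parental replicate 1 or without isoform 8 replicate 3, short of the call. LPIN3, a phosphatidate phosphatase named after its values were seen, was called in isoform 1 alone (1.05), with 0.85 in isoform 2. The median of the list was 0.01 in isoform 1, beside -0.107 for all genes.

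Of lipolysis genes, 9 of 12 were tested, and the called gene was AADAC, a lipase-like hydrolase, in isoforms 1, 2 and 12, where 4.52%, 3.73% and 0.573% of all tested genes were called. It fell from 4.19 TPM to 1.48, 0.918 and 1.27 TPM, with log2 fold changes of -1.06, -1.44 and -1.19 (limma, adjusted p = 1.69e-07, 7.07e-10 and 3.57e-07). In isoform 1 the call was lost with median-of-ratios scaling (-0.97) and without isoform 1 replicate 1 (-0.99). AADAC fell short of the call in isoforms 9 and 11 (-0.97 and -0.87). Of other droplet proteins, 16 of 20 were tested, and METTL7B was called higher in isoforms 1, 2, 3 and 10, by 2.08, 2.03, 1.54 and 1.16, where 4.52%, 3.73%, 0.807% and 1.44% of all tested genes were called. It rose from 6.87 TPM to 32.3 TPM in isoform 1. Its adjusted p (limma) was 7.36e-15, 1.6e-14, 7.52e-11 and 1.07e-08 in these lines. Its relative METTL7A, named after its values were seen, was called lower in isoforms 2 and 8 (-1.13 and -1). METTL7A fell just short of the call in isoforms 11, 1, 9, 7 and 12 (-0.99, -0.92, -0.89, -0.87 and -0.84). Its levels were low, at 2.17 TPM in parental cells and 0.446 and 0.584 TPM in isoforms 2 and 8.

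Of fatty acid oxidation genes, 21 of 23 were tested, and 3 were called higher in each of isoforms 1 and 2, beside 4.52% and 3.73% of all tested genes. They were named after their values were seen. The carnitine carrier SLC25A20 (1.48 and 1.36) and ETFDH (1.11 and 1.28) were called in both lines. HADHB was called in isoform 1 (1.2) and fell short of the call in isoform 2 (0.99). DECR1 was called in isoform 2 (1.02) and fell short of the call in isoform 1 (0.79). The list's median was 0.61, 0.43 and 0.24 in isoforms 1 to 3, beside -0.107, -0.09 and -0.04 for all genes. Of lipogenesis genes, 14 of 15 were tested, and MLXIPL, the carbohydrate-responsive transcription factor ChREBP, was called higher in isoforms 1, 2, 7, 8, 10 and 11, by 1.6, 1.34, 1.4, 1.11, 1.29 and 1.29 (limma, largest adjusted p = 3.41e-07). In the same lines 4.52%, 3.73%, 2.08%, 1.41%, 1.44% and 1.7% of all tested genes were called. Without isoform 8 replicate 2 its value in isoform 8 was 0.97. FASN and SREBF1, on the same list, were called in no line.

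Because HILPDA is a known hypoxia gene, 18 genes of the hypoxia response were counted too, all tested. In isoform 1, 6 were called higher, in isoform 2, 3 were, and CA9 was the called gene in isoforms 7 and 9. Of all tested genes, 4.52%, 3.73%, 2.08% and 0.827% were called in these lines. The median of the list was 0.17, 0.06, -0.01 and 0.01 there, beside -0.11, -0.09, -0.06 and 0 for all genes. PGK1, PDK1 and BNIP3, on the same list, were called in no line. CA9, a carbonic anhydrase, had log2 fold changes of 1.59, 1.56 and 1.25 in isoforms 1, 7 and 9. Its mean was 0.463 TPM in parental cells and 3.43, 3.32 and 2.59 TPM in these lines. CA9 thus entered the fit only through the levels in the lines, and no p-value is given for it. VEGFA went from 27.6 TPM to 105 and 85.3 TPM in isoforms 1 and 2 (1.9 and 1.59), and LDHA had 1.4 and 1.13; both were named after their values were seen. HILPDA was at its lowest in the same lines.

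Genes whose group means followed a given gene most closely were sought over the 13 group means, for the 3 genes whose means spanned at least 1 on the log2 scale. For CIDEB they were MAP3K11 (Pearson r 0.997), RAB17 (0.99) and RHOC (0.986). MAP3K11 was 50.1 TPM in parental cells and 113, 102 and 88.3 TPM with isoforms 1 to 3, a smaller range than that of CIDEB. Its next highest group was isoform 10, at 63.7 TPM. High r was the basis of the choice, so it is given as a description. RAB17 was 21.9 TPM in parental cells, 69.7 TPM with isoform 1 and 24.2 TPM with isoform 7. For CIDEC they were SLC35D2 (0.983), ZFP36 (0.982) and CD68 (0.98), and CD68 was 3.85, 33.0 and 17.9 TPM in the same groups. For PLIN2 they were TDRD7 (0.919), ATP13A3 (0.874) and RPPH1 (0.868), and TDRD7 was 10.3, 8.43 and 4.87 TPM. Each r with PLIN2 rests on the isoform 7 line: over the other 12 group means, computed after seeing the data, r was 0.085, -0.067 and 0.171. The means within each pair come from the same libraries.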

How the data were processed

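Poly(A) RNA of 39 libraries was sequenced from a directional kit, per the labels' protocols. The submitters' processing notes name Trimmomatic 0.36, FastQC 0.11.5, kallisto 0.44.0, DESeq2 1.22.2 and the build GRCh38, without their order or settings. The authors deposited TPM per gene and library in 13 tables. For each line the authors deposited, per the file headers, their log2 fold change, p-value, test statistic and standard error (scores), and mean normalised count (a signal), none of which entered a fit. The TPM columns sum to 999972.6 to 999987.7, and 27892 to 30553 genes are above 0. The depth of single libraries is unknown, since TPM keeps none, so no counting interval is given. The authors' mean normalised counts sum to 50609338 to 56136330 per table.

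The 12 rows of HNF4A were summed. Those genes whose mean reached 1 TPM were fitted on log2(TPM + 1) with limma 3.58.1 in R 4.3.3 (13 groups, 26 residual degrees of freedom, mean-variance trend), and p-values were adjusted by Benjamini-Hochberg over the 15003 genes of each of 12 comparisons. All comparisons share the 3 parental libraries. The script was tested on simulated data. The 10 genes and the lists were chosen with earlier results of these data known. Named besides the 10 genes and HNF4A were, per list, at most 4 genes called the same way in at least 3 lines, and the 3 genes closest in pattern to each gene spanning at least 1; exceptions are stated. Positions are from GENCODE 29 (GRCh38), and promoter sequences are from RefSeq (GRCh38). The 6 libraries of isoforms 4 and 5 carry no replicate number. Alternatives were other pseudocounts, a filter at 5 TPM, median-of-ratios scaling, no minimum fold change, leaving out each library, and a replicate block.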

Additional observations from a re-analysis of the deposited data

Results flagged for a closer look

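Of the fitted genes and the list genes named by rule, 3 had 1 line wholly above the parental libraries and another wholly below. The difference between the lines was not tested in any of them. In isoforms 1, 4, 5 and 7, 65%, 35.2%, 38% and 48.9% of all tested genes had all libraries on one side of the parental ones. Nothing is read from the count of 3 against these shares. PLIN2 had a log2 fold change of -1.68 in isoform 7 and of 0.23 in isoform 1. PLIN5 had -0.19 in isoform 1 and 0.42 in isoform 5. HILPDA had -0.66 in isoform 1 and 0.13 in isoform 4. Of these 6 values, the PLIN2 value in isoform 7 was the called one.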

How the results depend on the processing

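Of 1314 values of the fitted genes under the alternatives, 1276 kept their side of the call, 0 lost a call, 38 gained one (31 of them without a minimum fold change) and 0 changed sign while called. The number of the 10 genes called moved by over 1.5 times to 1 in isoform 5 and 2 in isoform 11 with log2(TPM + 0.1) and with log2(TPM + 0.5), and to 2 in isoform 11 with median-of-ratios scaling; leaving out single libraries gave 1 to 2 in isoform 11. Without a minimum fold change it was 6, 6, 5, 2, 7, 3, 3, 6, 5 and 2 in isoforms 1, 2, 3, 5, 7, 8, 9, 10, 11 and 12. The number of pathway list genes called (15, 12, 1, 0, 0, 0, 2, 3, 1, 2, 2 and 1 in isoforms 1 to 12) became 2, 1, 4, 3, 5 and 3 in isoforms 3, 4, 7, 9, 11 and 12 with log2(TPM + 0.1), and 3, 4 and 2 in isoforms 9, 11 and 12 with log2(TPM + 0.5). It became 1, 0 and 0 in isoforms 7, 9 and 12 with a filter at 5 TPM, which tests fewer genes, 4 in isoform 7 with median-of-ratios scaling, and 66, 59, 42, 26, 22, 9, 46, 44, 31, 49, 43 and 22 in isoforms 1 to 12 without a minimum fold change. Leaving out single libraries gave 1 to 3 in isoform 3 (3 without its replicate 1), 1 to 3 in isoform 8 (1 without its replicate 2 or parental replicate 3) and 1 to 2 in isoform 9 (2 without its replicate 1 or 3 or parental replicate 3). Apart from these constructions the cause was not tested. Median-of-ratios scaling moved the median of all genes by 0.123 in isoform 1 and 0.108 in isoform 2, and the smaller shifts of PLIN3, HILPDA and DGAT1 are read relative to that.

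Replicate numbers were not used as pairs in the main fit. Same-numbered libraries of a line and the parental cells had correlations of -0.047 to 0.187, in no line all over 0.1. These values cannot show whether a weaker effect is shared by replicate number. With a replicate block over the 33 numbered libraries, CIDEC stood at 6.42 and CIDEB at 4.18 in isoform 1 and PLIN2 at -1.68 in isoform 7, and no call of the 10 genes changed.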
